A study of Mus musculus with 7 samples.

Results

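The 52 genes described here encode the non-collagen proteins of the extracellular matrix of mouse skeletal muscle and the enzymes that assemble, crosslink and cut that matrix. They were taken by gene symbol as 1 list and sorted into 6 roles: matricellular and adhesive glycoproteins, small leucine-rich proteoglycans, elastic fiber and microfibril proteins, basement membrane proteins, collagen processing and crosslinking enzymes, and proteases with their inhibitors. Of the 52, 48 were measured by an array feature that carries a single gene symbol, out of 22180 such genes in all. Fbn1, Efemp2 and Adamts2 were not analysed here because the platform table lists no feature under their symbols, and Loxl2 was not analysed because its features carry several symbols. Fbn2, with 4.89 to 5.01 on the log2 scale, and Mfap4, with 5.28 to 5.63, lay below the array median on all 7 arrays and were not tested, which left 46 members among 13364 tested genes.

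RNA from whole skeletal muscle of mice was hybridised to Affymetrix Mouse Gene 2.0 ST arrays, 1 array per sample. The study's methods name the strain C57BL/6 for young and aged mice from suppliers and state no background strain for the MISR line. The 3 groups had 2 to 3 biological replicates each. Aged MISR mice (24 months, 2 arrays labelled replicates 1 and 2) carry a transgene that expresses the IκB super-repressor, a form of IκB that blocks NF-κB signaling, from the muscle creatine kinase promoter and therefore in muscle fibers. Aged WT mice (24 months, 2 arrays labelled replicates 2 and 3) and young WT mice (2 to 3 months, 3 arrays) carry no transgene. The study's methods name outside suppliers for WT mice in general and an own colony for the MISR line, and the source of the WT mice on these arrays is not stated, so a difference in colony between the genotypes was not tested. No young MISR array was analysed here, so the effect of the transgene was measured only in aged muscle. Aged MISR and young WT differ in both age and genotype. Neither the muscle sampled nor the sex is stated in the labels or the methods. The array study asked which genes of whole muscle differ with age and which of them differ when NF-κB is blocked in fibers.

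The matrix around muscle fibers forms the niche of the muscle stem cells. Fibers sit in a basement membrane of laminins, nidogens and perlecan, and outside it fibroblasts and fibro-adipogenic progenitors lay down proteoglycans, microfibrils and matricellular proteins such as periostin and the tenascins. Lysyl oxidases and collagen hydroxylases stabilise the collagen network, and metalloproteinases, held in check by the TIMP proteins, cut it. Most of these genes are expressed mainly by cells other than the fibers, whereas the MCK promoter is active in fibers. In whole tissue, fewer cells of a type and less RNA per cell cannot be told apart.

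All 10 markers of skeletal muscle fibers lay above the array median on every array. The array medians were between 5.86 and 5.93 on the log2 scale. The feature of Nfkbia, the gene of the protein that the transgene carries in altered form, read 8.18 and 8.94 in aged MISR, 8.55 and 7.97 in aged WT and 8.94 to 9.01 in young WT, so its arrays overlapped between genotypes. No source used here says whether its probes read the transgene, so the value checks nothing. Signals are on a log2 scale, on which a difference of 1 is a doubling, and levels of different genes are not set against each other.

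The DNA just upstream of the members was read because the transgene acts on NF-κB. RefSeq promoter windows of the mouse build GRCm38.p6 were given for 34 of the 52 members, as 41 windows of 250 bases before a start site. The NF-κB consensus, searched on both strands, matched in 3 of the 41 windows (7.32%), those of Serpinh1, Thbs2 and Mfap2, against 3.9% of all 32851 windows and 4.18% of the 21262 windows of protein-coding genes. The GC box GGGCGG matched in 27 windows (65.9%, against 42.6% of protein-coding windows), TATAAA in 7 (17.1%, against 11.6%) and the SMAD motif CAGAC in 17 (41.5%, against 40.8%). The AP-1 motif TGANTCA matched in 2 windows, Efemp1 and Tnxb (4.88%, against 6.13%), the TEAD motif GGAATG in 4 (9.76%, against 11.7%), and the CArG box in that of Lama2 (2.44%, against 1.39%), each motif counted alone and on both strands. The NF-κB matches are shown because they are the only ones in the member windows searched, and the window of Postn because it is the member with the largest difference between aged WT and young WT. Capitals mark the NF-κB match in the Serpinh1, Thbs2 and Mfap2 windows and TATAAA in the Postn window. Each is printed 5′ to 3′ on the strand of its gene. Postn and Mfap2 have 2 windows each, and only the window with the marked match is printed. The positions given below count from the start site of the printed window.
Postn, chr3:54360857-54361106, plus strand: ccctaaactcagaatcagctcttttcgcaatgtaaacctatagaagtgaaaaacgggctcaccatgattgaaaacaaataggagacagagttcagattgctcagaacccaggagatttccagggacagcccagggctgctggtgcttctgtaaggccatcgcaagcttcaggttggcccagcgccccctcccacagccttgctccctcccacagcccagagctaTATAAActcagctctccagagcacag
Serpinh1, chr7:99353240-99353489, minus strand: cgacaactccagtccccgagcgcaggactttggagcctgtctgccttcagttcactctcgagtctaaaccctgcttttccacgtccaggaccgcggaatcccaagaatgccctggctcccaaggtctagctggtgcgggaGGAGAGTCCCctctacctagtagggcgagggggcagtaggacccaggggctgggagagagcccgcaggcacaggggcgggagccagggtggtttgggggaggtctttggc
Thbs2, chr17:14694263-14694512, minus strand: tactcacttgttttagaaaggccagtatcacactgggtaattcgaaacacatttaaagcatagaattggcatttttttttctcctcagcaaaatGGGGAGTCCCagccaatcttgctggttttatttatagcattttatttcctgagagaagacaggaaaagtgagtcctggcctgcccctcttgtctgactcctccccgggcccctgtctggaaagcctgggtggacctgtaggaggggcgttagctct
Mfap2, chr4:141010431-141010680, plus strand: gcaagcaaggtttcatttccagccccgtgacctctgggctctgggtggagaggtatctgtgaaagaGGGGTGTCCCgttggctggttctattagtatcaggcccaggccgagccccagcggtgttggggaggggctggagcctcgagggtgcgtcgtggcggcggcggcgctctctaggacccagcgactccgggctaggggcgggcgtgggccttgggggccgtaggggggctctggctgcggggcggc
TATAAA lies 26 to 21 bases before the start site of Postn, the NF-κB match 110 to 101 bases before that of Serpinh1, 156 to 147 before that of Thbs2 and 184 to 175 before that of Mfap2. These matches describe letters in a window and not binding. Of the 3 genes with an NF-κB match, Serpinh1 differed by 0.47 between aged MISR and aged WT, Thbs2 by 0.19 and Mfap2 by 0.08, all on the log2 scale.

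Aged WT muscle had lower signal than young WT muscle for most members. Of the 46 tested members, 39 were lower and 7 were higher in aged WT, with a median log2 difference of -0.27, whereas 47.8% of all tested genes were lower and their median was 0.01. The members lowest in aged WT came from several roles: Postn, the matricellular protein periostin, differed by -0.84, Nid1, the basement membrane linker nidogen-1, by -0.74, and Pcolce, the enhancer of procollagen C-proteinase, by -0.58. Lox, the collagen and elastin crosslinker lysyl oxidase, was 0.44 higher in aged WT, Mmp14, a membrane-bound metalloproteinase, was 0.37 higher, and P4hb, the shared subunit of collagen prolyl hydroxylase, was 0.28 higher. In 31 members (67.4%) both aged WT arrays lay below all 3 young WT arrays, against 15.7% of all tested genes. In 4 members, Efemp1, Lox, Mmp14 and P4hb (8.7%), both lay above them, against 22% of all genes.

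No member passed an adjusted p of 0.05 in this comparison (limma with Benjamini-Hochberg adjustment over all tested genes), where 24 genes passed, or 0.18% (0.0973% higher and 0.0823% lower). At an unadjusted p under 0.05, limma gave 19 lower members (6.41% of all genes) and 3 higher ones, Lox, Mmp14 and P4hb (9.26% of all genes), and an ordinary test of the 2 groups gave 16 members, 2 of them higher (14.6% of all genes in either direction). The smallest adjusted p was 0.0527, for Postn, and over the alternative settings it lay between 0.0316 and 0.266, under 0.05 in 8 of 18. For this comparison, leaving out either aged MISR array and fitting the compared groups alone are the same fit. These settings are counted separately among the 8. The size of the difference depended on aged WT replicate 2: without it the median of the members was -0.16, with 37 members lower, and without aged WT replicate 3 it was -0.35, with 40 lower.

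Aged MISR muscle had higher signal than aged WT muscle for most of the same list. Of the 46 members 42 were higher in aged MISR and 4 (Adamts8, Eln, Emilin1 and P4hb) were lower, with a median log2 difference of 0.34, whereas 54.2% of all genes were higher and their median was 0.01. The largest differences were those of Thbs1, the matricellular protein thrombospondin-1, at 0.92, Postn at 0.90 and Tnc, tenascin-C, at 0.87. The 3 largest in the other direction were Adamts8, a secreted metalloproteinase, at -0.40, and Emilin1, an elastic fiber protein, and P4hb, each at -0.24. In 26 members (56.5%) both arrays of aged MISR exceeded both of aged WT, against 20.3% of all genes, and in Adamts8, Emilin1 and P4hb (6.52%) both lay below them, against 15.4% of all genes. This comparison and the preceding one share the aged WT arrays, so a low aged WT array enters both with opposite sign.

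None of the 46 members passed an adjusted p of 0.05 between aged MISR and aged WT, where limma called 7 genes (0.0524%). At an unadjusted p under 0.05, limma gave 20 higher members (8.08% of all genes) and 2 lower ones, Adamts8 and Emilin1 (4.09% of all genes), and the ordinary test of the 2 groups gave 3 (5.16% of all genes). The median difference of the members was 0.18 without aged MISR replicate 2, with 38 members higher, and 0.22 without aged WT replicate 2, with 39 higher. Without aged MISR replicate 1 and aged WT replicate 2 together, 37 members were higher, at a median of 0.30.

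Aged MISR and young WT muscle differed less over the list. In aged MISR 28 members were higher and 18 lower than in young WT, against 60.7% and 39.3% of all genes, with a median of 0.03 against 0.04 over all genes. The median was -0.07 without aged MISR replicate 2, with 17 members higher, and 0.09 without aged MISR replicate 1, with 32 higher. Both members that passed the test did so here: limma called Lox, which rose, and Adamts8, which fell, among 79 genes called (0.591%, of which 0.456% higher and 0.135% lower). Adamts8 met the signal filter only through its WT arrays, and Timp1 met it only through aged arrays. At an unadjusted p under 0.05, limma gave 4 higher members, Efemp1, Lox, Lum and Mmp14 (11.8% of all genes), and 3 lower ones, Adamts8, Lamc1 and Tnxb (6.97% of all genes). Both aged MISR arrays lay above all young WT arrays in 6 members, Efemp1, Lamb2, Lox, Lum, Mmp14 and Timp1 (13%), against 24.4% of all genes, and below them in 5, Adamts8, Lamc1, Plod1, Timp3 and Tnxb (10.9%), against 13.6% of all genes, so these counts were no higher than the background. Setting all 7 arrays side by side, both aged WT arrays lay below the other 5 in 21 of 46 members (45.7%), against 7.25% of all genes, and above them only in P4hb, against 6.67% of all genes. All 4 aged arrays lay above every young WT array in Efemp1, Lox and Mmp14, against 11.2% of all genes, and below them in Adamts8, Lamc1, Plod1, Timp3 and Tnxb, against 5.34%. Both aged MISR arrays lay above all 5 WT arrays in Efemp1, Lamb2, Lox, Lum and Mmp14, against 10.7% of all genes, and below them in Adamts8, against 6.56%.

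**Figure D1:**
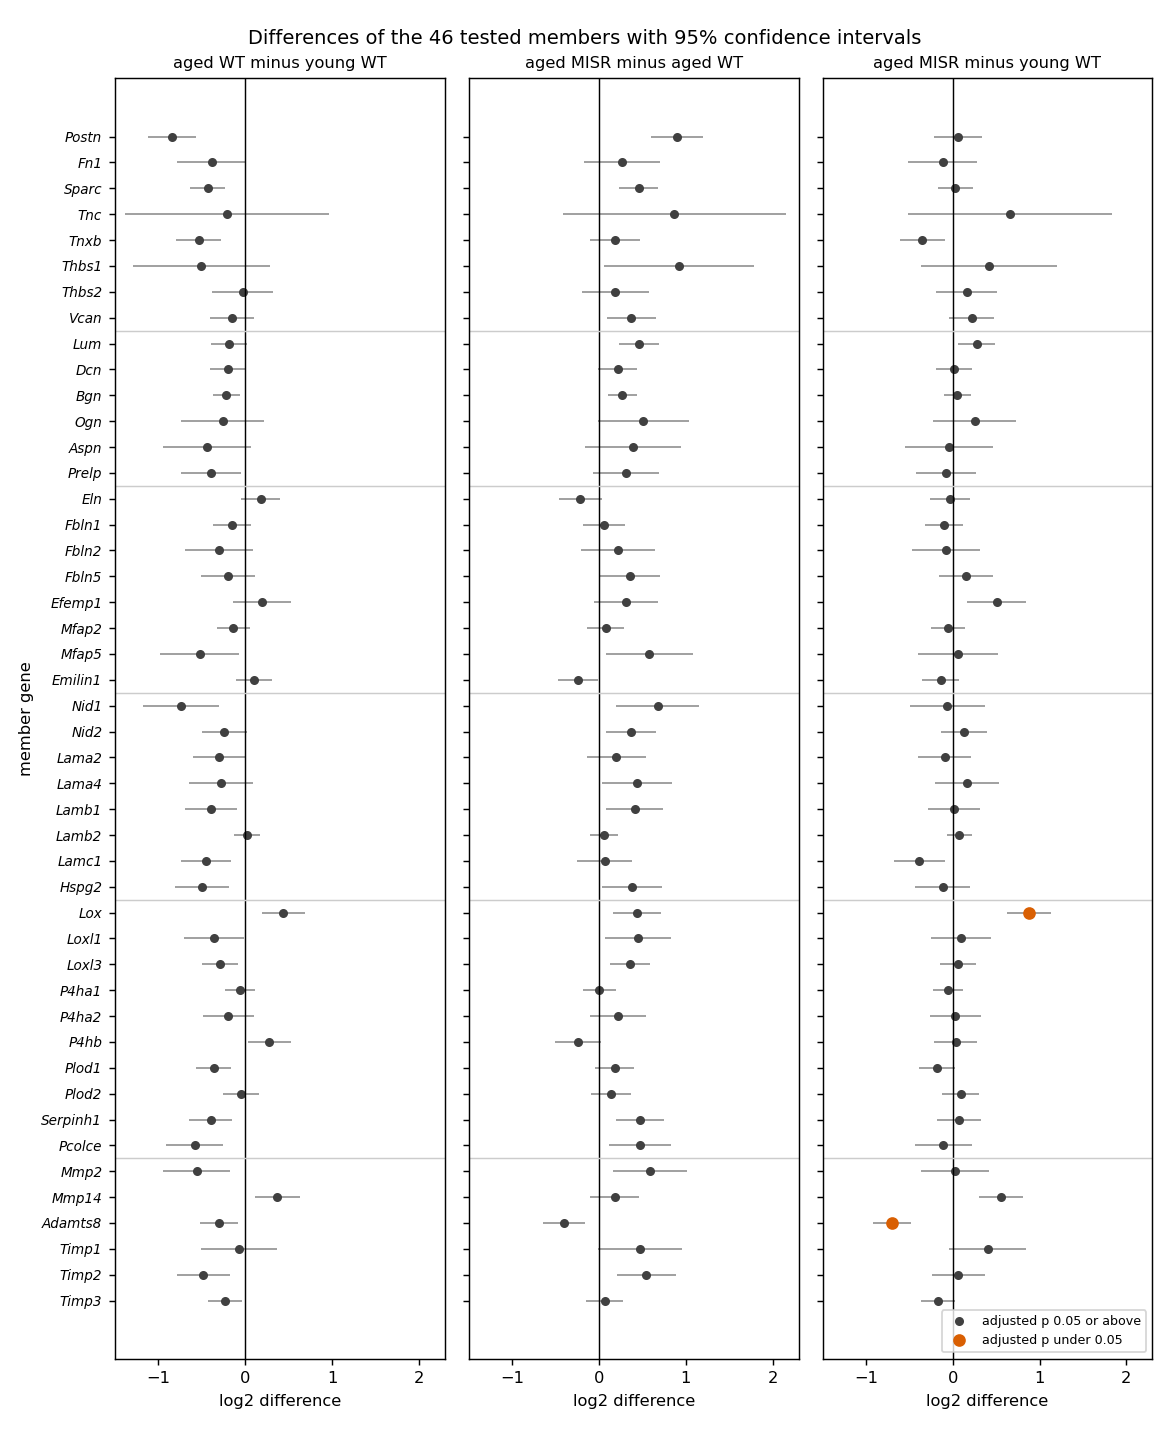
Log2 difference of each of the 46 tested members (dots, genes down the page by role) with its 95% confidence interval from limma (lines) in 3 comparisons: aged WT minus young WT, aged MISR minus aged WT, and aged MISR minus young WT. Most dots lie left of 0 in the first panel (39 of 46) and right of 0 in the second (42 of 46), and in the third only Lox and Adamts8, in orange, passed an adjusted p of 0.05.

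All 8 matricellular and adhesive glycoproteins were lower in aged than in young WT (median -0.41) and higher in aged MISR than aged WT (median 0.41), and none passed the test in a comparison. Postn, which binds collagen and is secreted by fibroblasts, read 7.41 and 7.35 in aged MISR, 6.33 and 6.63 in aged WT, and 7.20, 7.49 and 7.28 in young WT. Both aged WT arrays lay well below the other 5, and the aged MISR arrays lay inside the range of the young WT arrays. Postn was 1.79-fold lower in aged than in young WT (log2 difference -0.84, 95% confidence interval -1.11 to -0.56, limma adjusted p = 0.0527) and 1.86-fold higher in aged MISR than aged WT (0.90, interval 0.60 to 1.20, adjusted p = 0.0825). Between aged MISR and young WT the difference was 0.06, with an interval of -0.22 to 0.33.

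Sparc, a collagen-binding matricellular protein, also had its lowest arrays in aged WT, with 10.14 and 9.99 in aged MISR, 9.49 and 9.72 in aged WT and 10.02 to 10.07 in young WT. Its difference was -0.43 between aged WT and young WT (adjusted p = 0.107) and 0.46 between aged MISR and aged WT (adjusted p = 0.15). Fn1, fibronectin, differed by -0.38 and 0.27 in the same comparisons, and its aged MISR arrays of 9.78 and 10.18 overlapped the aged WT arrays of 9.46 and 9.96. Vcan, the large proteoglycan versican, read 7.03 and 7.38 in aged MISR, 6.84 and 6.83 in aged WT and 6.90 to 7.05 in young WT, so the aged WT arrays were again the lowest.

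Tnc and Thbs1 had the widest spread between arrays of 1 group. Tnc, which marks injured and remodelling matrix, read 8.73 and 6.77 in aged MISR, 6.74 and 7.03 in aged WT, and 6.85, 7.05 and 7.36 in young WT. Only aged MISR replicate 1 stood above the rest, and replicate 2 of the same group lay among the WT arrays. Its difference of 0.87 between aged MISR and aged WT had an interval of -0.42 to 2.16 (adjusted p = 0.564); it was 1.85 without aged MISR replicate 2, which sets the single high array against the WT arrays and takes the spread from the WT groups (adjusted p = 0.0337, the lowest over alternatives that reached 0.88), and -0.11 without aged MISR replicate 1. Thbs1, also stored in platelets, read 9.32 and 8.15 in aged MISR, 7.80 and 7.82 in aged WT, and 7.99, 8.27 and 8.69 in young WT. Here too aged MISR replicate 1 was the highest array, while both aged WT arrays were the lowest 2 of the 7. The difference of Thbs1 between aged MISR and aged WT was 0.92 (interval 0.06 to 1.78, adjusted p = 0.379), and it was 0.34 without aged MISR replicate 1.

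Tnxb, tenascin-X, differed from Tnc in its pattern. It read 8.55 and 8.83 in aged MISR, 8.42 and 8.59 in aged WT, and 9.14, 9.06 and 8.92 in young WT. All 4 aged arrays lay below all young WT arrays, and the aged MISR and aged WT arrays overlapped. The difference was -0.54 between aged WT and young WT (adjusted p = 0.111) and -0.35 between aged MISR and young WT (adjusted p = 0.175). Thbs2, the thrombospondin with the NF-κB match shown above, was between 7.60 and 8.10 in aged MISR, at 7.66 on both aged WT arrays and between 7.56 and 7.83 in young WT, without separation of the groups.

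**Figure D2:**
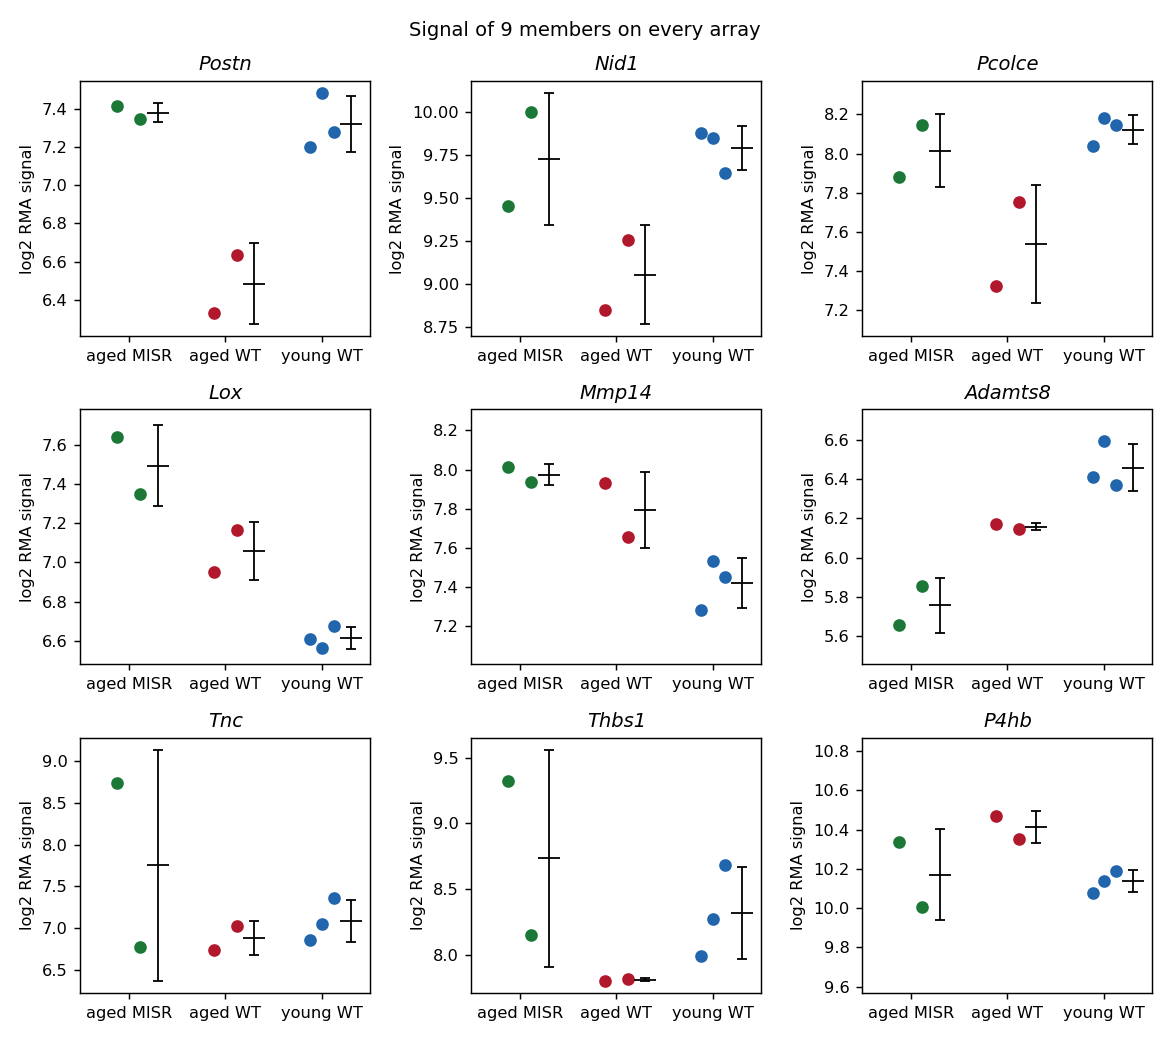
Log2 RMA signal of 9 members on every array (dots; aged MISR green, aged WT red, young WT blue) with the group mean and SD (black bars, n = 2, 2 and 3), each panel with its own axis range. Aged WT is the lowest group for Postn, Nid1 and Pcolce, the groups fall in the order aged MISR, aged WT, young WT for Lox and the reverse for Adamts8, and for Tnc and Thbs1 a single aged MISR array, at 8.73 and 9.32, stands apart.

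The 6 small leucine-rich proteoglycans, which bind collagen fibrils and regulate their diameter, all had lower means in aged than in young WT (median -0.24) and higher means in aged MISR than aged WT (median 0.35). In none of them did a difference pass the test. Lum, lumican, read 8.46 and 8.65 in aged MISR, 8.04 and 8.15 in aged WT, and 8.33, 8.34 and 8.17 in young WT, which placed both aged MISR arrays above all 5 WT arrays. It differed by 0.46 between aged MISR and aged WT (adjusted p = 0.15) and by 0.28 between aged MISR and young WT (adjusted p = 0.18). Dcn, decorin, spanned 12.51 and 12.79 in aged MISR, 12.41 and 12.46 in aged WT, and 12.63 to 12.65 in young WT. Bgn, biglycan, read 11.38 and 11.39 in aged MISR, 11.16 and 11.07 in aged WT, and 11.29 to 11.39 in young WT. Both proteoglycans had their lowest 2 arrays in aged WT, with differences of -0.20 and -0.22 from young WT.

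Ogn, osteoglycin, and Aspn, asporin, had wide gaps between the replicate arrays of both aged groups. Ogn read 9.26 and 9.90 in aged MISR and 8.84 and 9.30 in aged WT, against 9.21 to 9.41 in young WT. Aspn read 8.65 and 9.23 in aged MISR and 8.25 and 8.85 in aged WT, against 8.86 to 9.07 in young WT. In all 6 proteoglycans aged MISR replicate 2 was the highest of the 7 arrays and lay above aged MISR replicate 1. Prelp, which links matrix to basement membrane, had a second feature whose differences were smaller, -0.09 between aged WT and young WT and -0.06 between aged MISR and aged WT, where the feature analysed gave -0.39 and 0.32. The second feature of Bgn gave -0.15 and 0.08.

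The elastic fiber and microfibril proteins had the smallest group differences, with a median of -0.14 between aged WT and young WT and 0.15 between aged MISR and aged WT over 8 tested members. Mfap5, a microfibril-associated glycoprotein, read 8.15 and 8.45 in aged MISR, 7.38 and 8.05 in aged WT, and 8.27, 8.34 and 8.12 in young WT. Aged WT replicate 2 stood apart from its group by 0.67, the widest gap between the aged WT arrays among the members. Its difference was -0.52 between aged WT and young WT (adjusted p = 0.267) and -0.19 without that array. Fbln1, Fbln2 and Fbln5, the fibulins, were each lower in aged than in young WT, with differences of -0.15, -0.30 and -0.20, on arrays that did not overlap.

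Efemp1, fibulin-3, was higher in aged muscle of either genotype. It read 9.44 and 9.87 in aged MISR, 9.37 and 9.31 in aged WT, and 8.98, 9.16 and 9.30 in young WT. All 4 aged arrays lay above the young WT arrays, with 9.31 in aged WT next to 9.30 in young WT. The difference was 0.50 between aged MISR and young WT (limma adjusted p = 0.15). Between aged WT and young WT it was 0.19 (interval -0.14 to 0.53, limma adjusted p = 0.54). Emilin1, which anchors elastic fibers to cells, read 6.82 and 6.63 in aged MISR, 6.89 and 7.05 in aged WT, and 6.87, 6.80 and 6.92 in young WT. Both of its aged MISR arrays lay below both aged WT arrays (-0.24, adjusted p = 0.381). Eln, elastin, differed by -0.21 in that comparison with overlapping arrays, and Mfap2, with the NF-κB match shown above, stayed between 7.03 and 7.33 on all arrays.

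Of the 8 basement membrane members, 7 were lower in aged than in young WT, on arrays that did not overlap (15.7% of all genes), and the group median was -0.35. All 8 were higher in aged MISR than aged WT (median 0.37), 6 of them on arrays that did not overlap (20.3% of all genes), and no difference passed the test. Nid1 read 9.45 and 9.999 in aged MISR, 8.85 and 9.25 in aged WT, and 9.88, 9.85 and 9.64 in young WT. The aged WT arrays were the lowest 2 of the 7, and the aged MISR arrays lay on either side of the young WT arrays. Nid1 was 1.67-fold lower in aged than in young WT (-0.74, interval -1.17 to -0.30, adjusted p = 0.15) and 1.6-fold higher in aged MISR than aged WT (0.68, interval 0.20 to 1.15, adjusted p = 0.261). A second Nid1 feature gave -0.70 and 0.51 for these differences.

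Hspg2, the heparan sulfate proteoglycan perlecan, read 9.67 and 9.93 in aged MISR, 9.23 and 9.61 in aged WT, and 9.81 to 10.004 in young WT, with differences of -0.50 between aged WT and young WT (adjusted p = 0.166) and 0.38 between aged MISR and aged WT (adjusted p = 0.367). Lama2, the laminin chain that joins fibers to their basement membrane, differed by -0.30 and 0.20, Lama4, of the vessel wall, by -0.28 and 0.44, and Lamb1 by -0.40 and 0.41. Nid2, nidogen-2, differed by -0.24 and 0.37. In Lama2, Lama4, Lamb1 and Nid2 the aged WT arrays lay below all young WT arrays.

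Lamc1, the gamma chain shared by most laminins, did not have this pattern. It read 9.49 and 9.79 in aged MISR, 9.42 and 9.73 in aged WT, and 10.10, 9.995 and 9.98 in young WT. All 4 aged arrays lay below the young WT arrays, and the aged MISR and aged WT arrays interleaved. The difference was -0.45 between aged WT and young WT (adjusted p = 0.172), -0.38 between aged MISR and young WT (adjusted p = 0.178) and 0.06 between aged MISR and aged WT, with an interval of -0.25 to 0.38. Lamb2, the beta chain concentrated at the neuromuscular junction, stayed between 9.40 and 9.54 on all arrays, and both aged MISR arrays were its highest 2.

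**Figure D3:**
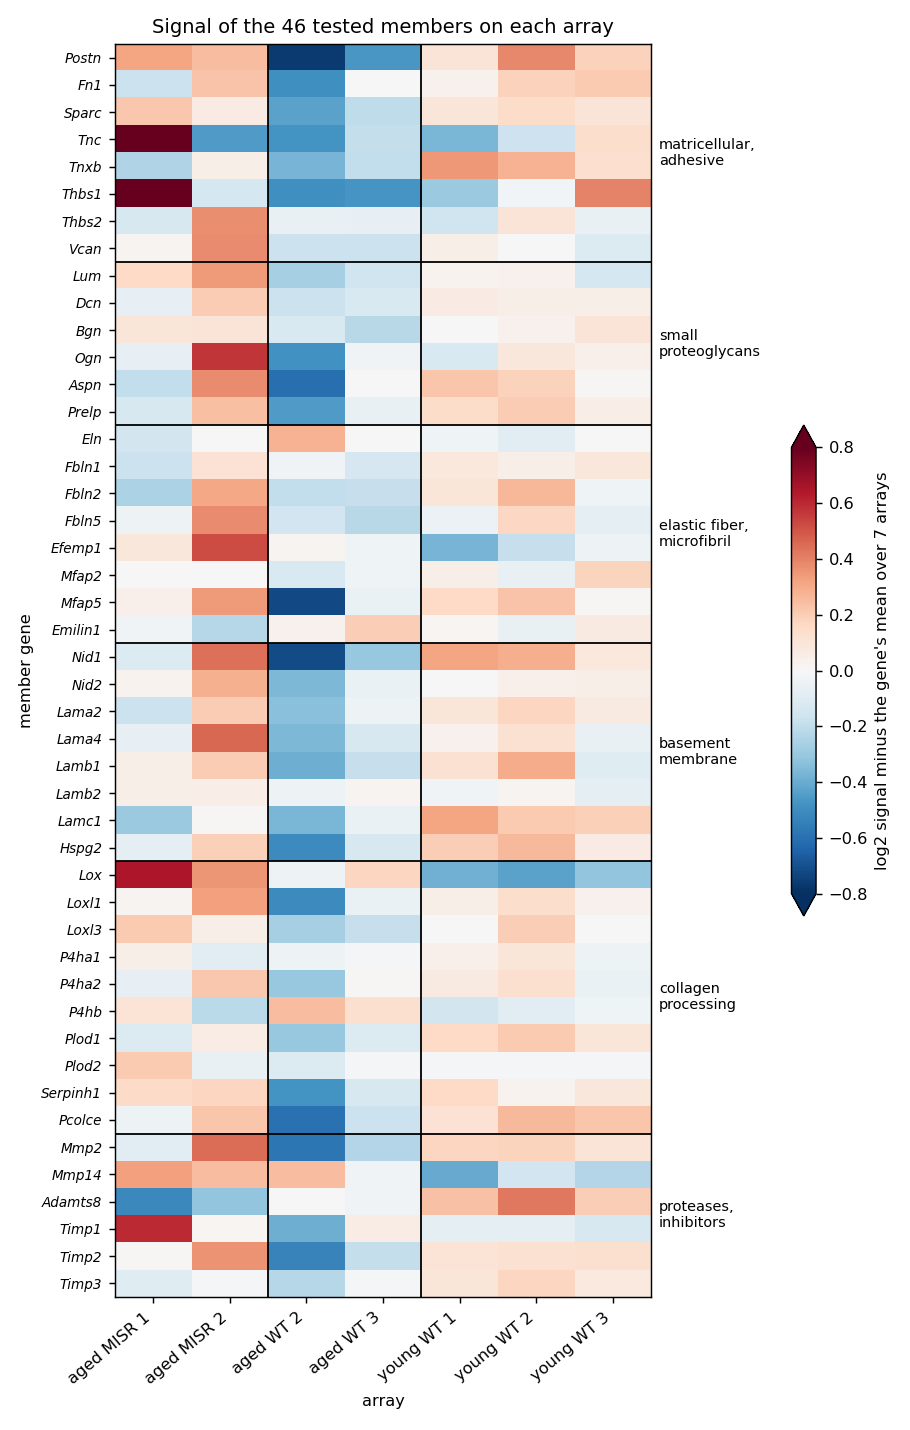
Log2 signal of each of the 46 tested members on each of the 7 arrays, minus the gene's mean over the arrays (color; red above, blue below the mean; values beyond 0.8 in either direction take the end color), with aged MISR left, aged WT in the middle and young WT right, and genes grouped by role. Aged WT replicate 2 is blue in most rows (lowest array in 31 of 46 members) and aged MISR replicate 2 is red in most (highest array in 24 of 46).

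Among the 10 tested genes of collagen processing and crosslinking, Lox stood apart from the rest. It read 7.64 and 7.35 in aged MISR, 6.95 and 7.16 in aged WT, and 6.61, 6.57 and 6.68 in young WT. The groups did not overlap: both aged MISR arrays were above both aged WT arrays, which were above all young WT arrays. Lox rose 1.83-fold in aged MISR relative to young WT (log2 difference 0.88, SE 0.11, interval 0.62 to 1.13, limma adjusted p = 0.0337). It was 0.44 higher in aged than in young WT (adjusted p = 0.145) and 0.43 higher in aged MISR than aged WT (adjusted p = 0.224), neither of which passed the test. The call was lost on leaving out either aged WT array (adjusted p = 0.0543), any young WT array (adjusted p = 0.126 to 0.199) or aged MISR replicate 1 (0.73, adjusted p = 0.0747), while without aged MISR replicate 2 the difference was 1.02 (adjusted p = 0.0222). In the last 2 fits aged MISR is a single array, and its spread is taken to be that of the WT groups. Over all alternatives the adjusted p of Lox lay between 0.0203 and 0.288, under 0.05 in 7 of 18. Leaving out either aged WT array and fitting the compared groups alone are the same fit here and are counted separately among the 18.

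The related lysyl oxidases did not share the pattern of Lox. Loxl1, which crosslinks elastin, read 8.02 and 8.33 in aged MISR, 7.49 and 7.95 in aged WT, and 8.04 to 8.14 in young WT. Loxl3 read 7.61 and 7.46 in aged MISR, 7.14 and 7.22 in aged WT, and 7.40 to 7.60 in young WT. Both were lowest in aged WT, with differences from young WT of -0.36 (adjusted p = 0.307) and -0.29 (adjusted p = 0.196), and neither differed from young WT in aged MISR by more than 0.10.

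Pcolce, which speeds removal of the procollagen C-propeptide, read 7.88 and 8.15 in aged MISR, 7.33 and 7.75 in aged WT, and 8.04, 8.18 and 8.15 in young WT. Its aged WT arrays were below the other 5, and its mean was 1.5-fold lower in aged than in young WT (-0.58, interval -0.91 to -0.26, adjusted p = 0.14). The difference between aged MISR and aged WT was 0.48 (adjusted p = 0.287). Serpinh1, the collagen chaperone HSP47 with the NF-κB match shown above, read 8.35 and 8.36 in aged MISR, 7.71 and 8.06 in aged WT, and 8.35, 8.22 and 8.28 in young WT. Aged WT was again the lowest group, with differences of -0.40 between aged WT and young WT (adjusted p = 0.164) and 0.47 between aged MISR and aged WT (adjusted p = 0.202). Plod1, a lysyl hydroxylase, was below the young WT arrays on all 4 aged arrays, with -0.36 in aged WT (adjusted p = 0.143) and -0.18 in aged MISR (adjusted p = 0.312).

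P4hb, which is also the general protein disulfide isomerase, ran opposite to most members. It read 10.34 and 10.01 in aged MISR, 10.47 and 10.35 in aged WT, and 10.08, 10.14 and 10.19 in young WT. Both aged WT arrays were the highest 2 of the 7, and the aged MISR arrays lay on either side of the young WT arrays. The differences were 0.28 between aged WT and young WT (adjusted p = 0.271) and -0.24 between aged MISR and aged WT (adjusted p = 0.455). The catalytic subunits of the same hydroxylase did not follow it: P4ha1 differed by -0.06 and 0.01 and P4ha2 by -0.19 and 0.22 in these comparisons, with overlapping arrays. Plod2, whose product marks collagen telopeptides for crosslinking, differed by -0.05 and 0.14.

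The 6 proteases and inhibitors divided by gene. Mmp2, gelatinase A, read 10.11 and 10.64 in aged MISR, 9.62 and 9.96 in aged WT, and 10.37, 10.38 and 10.30 in young WT, so that aged WT was the lowest group (-0.56 from young WT, adjusted p = 0.19; aged MISR 0.58 above aged WT, adjusted p = 0.27). Timp2, which binds Mmp2, read 9.85 and 10.20 in aged MISR, 9.31 and 9.65 in aged WT, and 9.95 to 9.97 in young WT. Its differences were -0.48 (adjusted p = 0.167) and 0.55 (adjusted p = 0.214). Both genes thus had their lowest arrays in aged WT.

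Mmp14, the membrane protease that activates pro-Mmp2, was instead higher in aged muscle of either genotype. It read 8.01 and 7.94 in aged MISR, 7.93 and 7.66 in aged WT, and 7.28, 7.53 and 7.45 in young WT. All 4 aged arrays lay above the young WT arrays, and those of aged MISR exceeded those of aged WT, although the closest pair of arrays read 7.94 in aged MISR and 7.93 in aged WT. The difference was 0.55 between aged MISR and young WT (interval 0.30 to 0.81, adjusted p = 0.0846), 0.37 between aged WT and young WT (adjusted p = 0.186) and 0.18 between aged MISR and aged WT (adjusted p = 0.581).

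Adamts8, a secreted protease with thrombospondin repeats, ran in the opposite order to Lox. It read 5.66 and 5.86 in aged MISR, 6.17 and 6.15 in aged WT, and 6.41, 6.60 and 6.37 in young WT. The groups did not overlap, with aged MISR lowest, and both aged MISR arrays lay below their array medians of 5.86 and 5.88. Adamts8 thus passed the signal filter only through its WT arrays, where it was higher. Without that filter no member was called between aged MISR and young WT. Adamts8 fell 1.63-fold in aged MISR relative to young WT (-0.70, SE 0.09, interval -0.92 to -0.48, limma adjusted p = 0.0389). The differences between aged WT and young WT, -0.30, and between aged MISR and aged WT, -0.40, did not pass the test (adjusted p = 0.206 and 0.211). A second Adamts8 feature, below the array median on all 7 arrays, differed by -0.15 between aged MISR and young WT, and with the mean of both features the call was lost (-0.43, adjusted p = 0.0746). Leaving out aged MISR replicate 1 (adjusted p = 0.0874) or any single WT array (adjusted p = 0.0758 to 0.2) also ended it. Without aged MISR replicate 2, with the spread taken from the WT groups alone, the difference was -0.80. Over all alternatives the adjusted p of Adamts8 lay between 0.0299 and 0.307, under 0.05 in 3 of 17. The fit repeated for Lox is repeated among these 17 too.

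Timp1, an inhibitor induced in inflammation, read 6.48 and 5.90 in aged MISR, 5.49 and 5.95 in aged WT, and 5.76 to 5.81 in young WT. Aged MISR replicate 1 stood above the rest, and 4 of the 7 arrays lay below their array median. These were aged WT replicate 2 and all young WT arrays, so Timp1 passed the signal filter only through aged arrays, where it was higher. Timp3, a matrix-bound inhibitor, read 9.66 and 9.75 in aged MISR, 9.53 and 9.75 in aged WT, and 9.84 to 9.93 in young WT, with all 4 aged arrays below the young WT arrays and a difference of -0.24 between aged WT and young WT (adjusted p = 0.248).

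The replicate arrays of the aged groups differed from each other across the list. Aged WT replicate 3 was above replicate 2 in 36 of 46 members, against 51.7% of all genes, and aged MISR replicate 2 was above replicate 1 in 34, against 47.3% of all genes. Aged WT replicate 2 was the lowest of the 7 arrays in 31 members (19.2% of all genes), and replicate 3 of that group in Bgn, Fbln5 and Vcan. Aged MISR replicate 2 was the highest array in 24 members (18.6% of all genes), and aged MISR replicate 1 in 8, Lox, Loxl3, Mmp14, Plod2, Sparc, Thbs1, Timp1 and Tnc (23.8% of all genes). As a deviation from the mean of the 7 arrays, the median member stood at -0.02 and 0.21 on the aged MISR arrays, -0.32 and -0.06 on the aged WT arrays, and 0.05, 0.12 and 0.05 on the young WT arrays. The aged WT arrays were therefore both below the other 5 in this median, replicate 3 by a small margin. The median gap between replicates was 0.29 in aged MISR and 0.22 in aged WT over the members, against 0.125 and 0.102 over all genes.

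**Figure D4:**
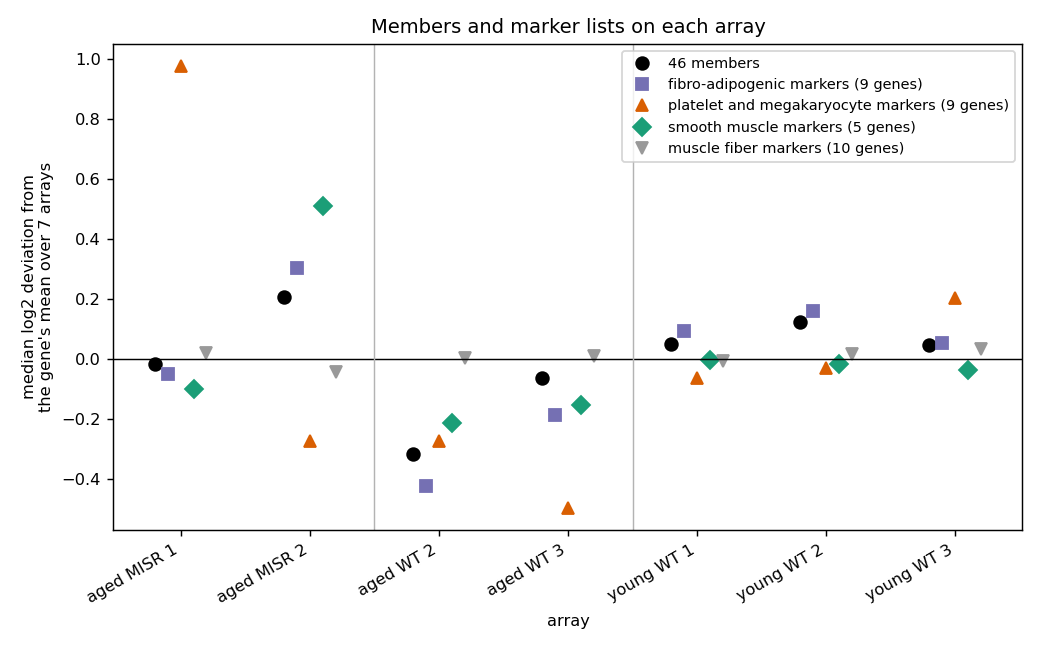
Median deviation, on the log2 scale, of the 46 members and of 4 marker lists from each gene's mean over the 7 arrays, by array, with aged MISR left, aged WT in the middle and young WT right. The members and the fibro-adipogenic markers have their lowest points on aged WT replicate 2 (-0.32 and -0.42) and their highest on aged MISR replicate 2 (0.21 and 0.30), while the platelet and megakaryocyte markers are highest on aged MISR replicate 1 (0.98).

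Markers of some other cell types moved with the members on these arrays, and those of others did not. The fibro-adipogenic list, of cells that make much of the muscle matrix, had 9 of 12 genes tested. Of the 9, 8 were lower in aged than in young WT, against 47.8% of all genes. All 9 were higher in aged MISR than aged WT, against 54.2% of all genes. Sums of signal, here and below, include measured genes that were not tested. Over its 11 measured genes the fibro-adipogenic list summed, on the log2 scale, to 11.99 and 12.35 in aged MISR, 11.67 and 11.86 in aged WT, and 12.12 to 12.26 in young WT. Pdgfra, a defining marker of these cells, read 9.01 and 9.23 in aged MISR, 8.34 and 8.54 in aged WT, and 8.62 to 8.93 in young WT. Both aged WT arrays of Pdgfra were thus below the other 5, as in 21 of the 46 members, while both aged MISR arrays were above all young WT arrays, as in 6. Not every marker followed Pdgfra: between aged MISR and young WT, 5 of the 9 were higher and 4 lower. Both aged MISR arrays lay above all young WT arrays in 3 of the 9, against 24.4% of all genes. Osr1 alone had a higher mean in aged than in young WT. Thy1 read 7.14 on aged MISR replicate 1, against 7.29 to 7.75 in young WT. Of the 12 listed genes 11 were measured. Tcf21 and Gli1 lay below the array median on 7 and 6 of the arrays and were not tested.

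Endothelial markers summed to 12.14 and 12.50 in aged MISR, 11.99 and 12.06 in aged WT, and 12.20 to 12.29 in young WT, with 8 of 8 higher in aged MISR than aged WT (54.2% of all genes were higher in that comparison). Smooth muscle markers summed to 10.76 and 11.36 in aged MISR, 10.59 and 10.64 in aged WT, and 10.80 to 10.82 in young WT, with 5 of 5 higher in aged MISR, and macrophage markers to 11.89 and 11.84 in aged MISR, 11.47 and 10.81 in aged WT, and 11.12 to 11.25 in young WT, with 13 of 13 higher. Aged MISR therefore had higher values for several kinds of non-fiber cell than aged WT, while the fiber markers summed to 16.52 and 16.49 in aged MISR, 16.50 and 16.52 in aged WT, and 16.53 to 16.56 in young WT. Between aged WT and young WT, 7 of 8 endothelial, 4 of 5 smooth muscle and 8 of 13 macrophage markers were lower, against 47.8% of all genes. In the macrophage sum aged WT replicate 2 lay above all young WT arrays and replicate 3 below them. That replicate order is the reverse of the order in most members. The part of these cell types in the differences of the members was not tested.

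Aged MISR replicate 1, the array that carried the high Tnc and Thbs1 values, was also the highest array for all 9 tested platelet and megakaryocyte markers (of 13 listed), against 23.8% of all genes. The signal summed over the 10 measured markers was 13.04 and 10.87 in aged MISR, 11.16 and 10.70 in aged WT, and 11.42 to 12.01 in young WT. Ppbp made up much of this sum and read 12.54 on aged MISR replicate 1. Clec1b, a platelet receptor that was not tested, read 7.22 on that array, against 5.06 to 5.72 on the other 6, and the bone matrix gene Ibsp read 9.07, against 5.16 to 7.02. Alpl, the other bone cell marker tested, did not follow Ibsp. It read 8.16 on that array and 8.30 on aged MISR replicate 2, its highest array. Alpl, the other bone cell marker tested, did not follow Ibsp. It read 8.16 on that array and 8.30 on aged MISR replicate 2, its highest array. The neutrophil markers summed to 11.40 and 9.40 in aged MISR, 11.08 and 9.97 in aged WT, and 10.52 to 11.15 in young WT. Aged MISR replicate 2 was high instead for adipocyte markers, which summed to 11.99 and 12.74 in aged MISR, 12.28 and 12.06 in aged WT, and 12.13 to 12.22 in young WT. Tendon markers summed to 10.37 and 10.93 in aged MISR, 10.13 and 10.89 in aged WT, and 10.89 to 11.02 in young WT. Aged WT replicate 2 was the lowest array in this sum and in 4 of the 8 tested tendon markers, against 19.2% of all genes. Between aged MISR and aged WT, 3 of the 8 were higher and 5 lower (median -0.03), unlike most members. Schwann cell markers, with 3 of 7 tested, summed to 8.95 and 9.52 in aged MISR, 8.91 and 9.10 in aged WT, and 9.16 to 9.22 in young WT. Bone cell markers, of which 8 of 11 were measured and 2 tested, summed over the 8 to 10.13 and 9.18 in aged MISR, 8.87 and 9.08 in aged WT, and 9.19 to 9.27 in young WT. The part of these cells in the values of the members was not tested.

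Other genes of the matrix that are not on the list showed the same directions with smaller medians. Of 69 other structural matrix genes 49 were tested, and 36 of these were lower in aged than in young WT (median -0.15, against 47.8% lower over all genes) and 32 higher in aged MISR than aged WT (median 0.06, against 54.2% higher over all genes). Of 62 other matrix enzymes 50 were tested, with 35 lower in aged WT (median -0.09) and 35 higher in aged MISR than aged WT (median 0.11). Of 28 matrix receptors 27 were tested, with 23 lower in aged WT (median -0.12) and 24 higher in aged MISR than aged WT (median 0.24). Over these 3 lists, limma called 2 of the tested genes, both higher in aged MISR than in young WT, where 0.591% of all genes were called (0.456% higher). Ccn1, a matricellular ligand of integrins, read 9.61 and 9.34 in aged MISR, 8.94 and 8.94 in aged WT, and 8.75 to 8.80 in young WT, and rose by 0.70 (adjusted p = 0.0359). Itga4, the integrin chain that binds fibronectin and VCAM-1 on leukocytes, read 9.02 and 8.81 in aged MISR, 8.46 and 8.44 in aged WT, and 7.81 to 8.12 in young WT, and rose by 0.94 (adjusted p = 0.0312). Like Lox, both had the order aged MISR, aged WT, young WT on arrays that did not overlap.

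Fndc1 and Bmp1 had their lowest arrays in aged WT. Fndc1, a fibronectin-domain protein, read 8.66 and 8.96 in aged MISR, 8.11 and 8.24 in aged WT, and 8.68 to 8.89 in young WT, and differed by -0.59 between aged WT and young WT (adjusted p = 0.092) and by 0.63 between aged MISR and aged WT (adjusted p = 0.126). Bmp1, the procollagen C-proteinase that Pcolce enhances, read 8.60 and 8.49 in aged MISR, 7.87 and 8.27 in aged WT, and 8.50 to 8.81 in young WT. It differed by -0.56 between aged WT and young WT (adjusted p = 0.15). Adamts5, a versican-cleaving protease, was 0.72 higher in aged MISR than aged WT (adjusted p = 0.205), and Kera, the corneal and tendon proteoglycan keratocan, differed by -1.15 between aged MISR and young WT (adjusted p = 0.101).

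The p-values rest on 2 or 3 arrays a group, and limma estimated the spread from 4 residual degrees of freedom, to which the prior over genes added 3.13. The number of arrays limits the precision: the 95% interval of Postn between aged WT and young WT, -1.11 to -0.56, spans differences of very different size, and an adjusted p above 0.05 does not show that a member was the same in both groups.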

How the data were processed

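Total RNA of whole skeletal muscle was labelled and hybridised to Affymetrix Mouse Gene 2.0 ST arrays. The authors deposited log2 signals after RMA (robust multi-array averaging, version not stated in the sources used). RMA sets the probe values of all arrays to 1 distribution, and the medians of the resulting log2 signals still ranged from 5.86 to 5.93. The deposited log2 table has 41345 features; 23521 carry 1 gene symbol in the platform table, 1820 several and 16004 are not listed there. Each gene was read from the feature with the highest mean. Genes at or above the array median on at least 2 arrays were tested in 1 limma fit (limma 3.58.1, R 4.3.3; lmFit and eBayes) over 3 groups, with Benjamini-Hochberg adjustment over 13364 genes and a threshold of 0.05. The steps were tested on simulated data. Groups came from the labels. Members and lists were chosen with earlier results of these data known. Values on every array are given for members called, for the 3 largest differences in each direction and comparison, and for the 3 widest gaps within an aged group. Promoter windows are RefSeq, GRCm38.p6. Alternatives changed the normalization, filter, feature choice, variance model and arrays.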

Additional observations from a re-analysis of the deposited data

How the results depend on the processing

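Direction counts on leaving out arrays were run after seeing the data. In these settings 37 to 40 members were lower in aged than in young WT and 37 to 42 higher in aged MISR than aged WT. Between aged MISR and young WT the count was less stable, with 17 to 32 members higher. Leaving out an array of a group not compared cannot change a count. Between aged WT and young WT the count of members called was 1 instead of 0, always Postn, under a further quantile normalization, with arrays centred on their medians, with a stricter signal filter, with a trended and robust variance prior, with array weights, when fitting the compared groups alone, and at an adjusted p under 0.1; it ranged from 0 to 1 on leaving out single arrays. The median difference of the members ranged from -0.35 to -0.16 on leaving out single arrays and was -0.16 without aged MISR replicate 1 and aged WT replicate 2. Between aged MISR and aged WT the count was 1 at an adjusted p under 0.1 (Postn) and ranged from 0 to 1 on leaving out single arrays (Tnc without aged MISR replicate 2), and the median ranged from 0.18 to 0.39. Between aged MISR and young WT the count of 2 became 1 (Lox) under the further quantile normalization, with the stricter filter, with the mean of a gene's features and with array weights. It became 0 with no signal filter, when fitting the compared groups alone, under the ordinary test of the 2 groups, and without aged MISR replicate 1 and aged WT replicate 2, and ranged from 0 to 3 on leaving out single arrays. The cause was not tested, apart from Adamts8 lying under the stricter filter. Its median of 0.03 turned to -0.019 under the further quantile normalization and ranged from -0.066 (without aged MISR replicate 2) to 0.090 on leaving out single arrays.

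Some members changed sign on leaving out single arrays or pairs, among them Tnc (0.87 against aged WT and 0.66 against young WT in the reported fit) and Thbs1 (0.42 against young WT), and none passed the test with the sign changed. Where 1 aged MISR or aged WT array was left out, the other was assumed to vary like the remaining groups. Between aged MISR and aged WT, Tnc ranged from -0.11 without aged MISR replicate 1 to 1.85 without replicate 2 (-0.26 without aged MISR replicate 1 and aged WT replicate 2), and Lamc1 from -0.091 to 0.22. Between aged MISR and young WT, the ranges were -0.13 to 0.20 for P4hb, -0.34 to 0.21 for Nid1, -0.24 to 0.025 for Pcolce, -0.17 to 1.002 for Thbs1 and -0.32 to 1.65 for Tnc, with the sign changed without aged MISR replicate 1 in each, also when aged WT replicate 2 was left out with it (-0.13, 0.21, 0.025, -0.17 and -0.32). Postn ranged from -0.0034 without young WT replicate 1 to 0.14, and Mfap5 from -0.091 without aged MISR replicate 2 to 0.21. Under the further quantile normalization P4hb was at -0.011 and Mfap5 at -0.030.

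The groups share some replicate numbers, but same-numbered arrays come from separate mice, and their deviations from the group means did not go together (correlations across genes of -0.22, -0.08, -0.01, -0.10 and -0.15). With replicate number as block, no member was called in any comparison (0 instead of 2 between aged MISR and young WT), and the medians were -0.31, 0.40 and 0.05.

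Over all tested genes at an adjusted p under 0.05, the genes called ranged over the settings from 0 to 162 between aged WT and young WT (24 as reported), 0 to 113 between aged MISR and aged WT (7) and 0 to 466 between aged MISR and young WT (79). Arrays give no depth, and 2 to 3 of them a group limit what can be called; Timp1 and Adamts8 were near or under the array median on several arrays.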
